A study of Mus musculus with 3 samples.

Results

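Pancreatic acinar cells captured in islet preparations of 3 mice were described across genes. They were found among cell barcodes with at least 500 detected genes and at most 15% mitochondrial UMIs (unique molecular identifiers, each standing for 1 captured RNA molecule). A barcode was a member where Ctrb1, Cela1, Cela2a, Cela3b, Prss2, Pnlip, Cpa1, Cpb1, Clps and Zg16 together made up at least 30% of its UMIs. This took 155 of 7490 kept barcodes. Mouse 1 gave 30 of 1145, or 2.62% (95% exact binomial interval 1.78 to 3.72). Mouse 2 gave 108 of 2705, or 3.99% (3.29 to 4.80). This was 2.26% with 48 members that also held duct and delta-cell RNA left out of members and kept barcodes alike. Mouse 3 gave 17 of 3640, or 0.467% (0.272 to 0.747), below the intervals of the other mice. The mean share was 2.36% ± 1.78 (SD, n = 3 mice), or 1.78% without those 48. The intervals cover counting error only.

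Acinar cells make up most of the exocrine pancreas. They make digestive enzymes, largely as inactive zymogens, store them with colipase and matrix proteins in zymogen granules, and release them into ducts when cholecystokinin or acetylcholine raises calcium. The transcription factor PTF1, a complex of Ptf1a with an E protein and Rbpjl, drives the enzyme genes through promoter elements that join an E-box and a TC-box.

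The mice were female NOD-SCID animals of 10 to 11 weeks, labelled non-diabetic, 1 library each, in 1 group with no treated group beside it. This strain lacks mature T and B cells. Islets were released by collagenase delivered through the bile duct, purified on a density gradient and dissociated with TrypLE before 10x Genomics 3′ v2 capture. The series title names the origin of regenerated beta cells as its question. The labelled tissue was islets, so the members are not a sample of the whole pancreas.

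Letters like those of the E-box and the TC-box were looked for in the promoters of the genes that define the members. The 4 promoters printed here were chosen because 3 of them carry both motifs, not always close together, and the other belongs to Ctrb1, the most abundant gene of the members. Each is the 250 bases before the RefSeq transcription start, 5′ to 3′ on the strand of the gene, in build GRCm38.p6. Capitals mark the E-box CACCTG, the TC-box TTTCCC and the TATA motif TATAAA, read on both strands. Cela1, Cela2a and Ctrb1 lie on the minus strand and Prss2 on the plus strand.
Cela1 chr15:100687921-100688170: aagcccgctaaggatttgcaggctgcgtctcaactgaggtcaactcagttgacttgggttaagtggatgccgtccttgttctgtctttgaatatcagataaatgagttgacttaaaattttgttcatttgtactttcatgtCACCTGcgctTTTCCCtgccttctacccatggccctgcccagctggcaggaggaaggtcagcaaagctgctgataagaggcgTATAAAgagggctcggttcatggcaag
Cela2a chr4:141826006-141826255: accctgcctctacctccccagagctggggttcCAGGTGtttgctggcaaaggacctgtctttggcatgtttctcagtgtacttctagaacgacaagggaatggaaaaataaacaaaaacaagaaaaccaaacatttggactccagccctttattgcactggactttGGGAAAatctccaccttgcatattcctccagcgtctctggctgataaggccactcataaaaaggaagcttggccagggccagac
Prss2 chr6:41521526-41521775: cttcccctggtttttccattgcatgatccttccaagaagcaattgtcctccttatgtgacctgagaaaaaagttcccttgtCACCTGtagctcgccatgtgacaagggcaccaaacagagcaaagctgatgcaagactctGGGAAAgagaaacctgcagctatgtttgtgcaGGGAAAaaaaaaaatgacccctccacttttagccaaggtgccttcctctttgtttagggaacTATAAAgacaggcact
Ctrb1 chr8:111691011-111691260: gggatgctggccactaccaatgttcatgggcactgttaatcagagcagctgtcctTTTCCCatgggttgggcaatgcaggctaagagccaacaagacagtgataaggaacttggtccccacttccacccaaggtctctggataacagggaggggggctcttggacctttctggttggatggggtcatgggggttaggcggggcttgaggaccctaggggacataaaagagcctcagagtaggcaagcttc
In Cela1 the E-box lay 109 to 104 bases before the start and the TC-box 99 to 94 bases before it. In Cela2a they lay 218 to 213 and 84 to 79 bases before the start, both on the opposite strand. Prss2 had an E-box at 169 to 164 bases and 2 TC-boxes, and Ctrb1 had a TC-box at 195 to 190 bases and no CACCTG. RefSeq windows were at hand for 8 of the 10 rule genes. The E-box was in 5 of these 8, the TC-box in 5 and both in 3. Among all 32851 promoter windows of this length, 17.2% held the E-box, 21.9% the TC-box and 3.61% both. Of 21 windows of other digestive enzyme genes, 11 held the E-box, 4 the TC-box and 4 both. A match describes these letters only and shows no binding.

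The libraries held 4444 to 6005 barcodes and 32389170 to 57849496 UMIs each. Between 9 and 148 barcodes were shared by a pair of libraries, and 3 members of mice 1 and 2 were in shared barcodes. Members were deep and unequal in size. Their median depth was 14950 UMIs in mouse 1, 10180 in mouse 2 and 18940 in mouse 3, against 5837, 5412 and 11530 in all other kept barcodes. The range ran from 3603 to 659768 UMIs, and 4 members of mouse 1 and 7 of mouse 2 exceeded 100000. The deepest barcode held 40.3% of all member UMIs in mouse 1, 14.8% in mouse 2 and 13.0% in mouse 3, so sums over members are weighted towards a few barcodes. Mitochondrial UMIs had a median of 2.83%, 2.31% and 0.233% in members of mice 1, 2 and 3, against 6.42%, 4.36% and 3.13% in the others.

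A block of the mouse 2 members stood apart. Of its 108 members, 48 held both Spp1, a secreted duct-cell protein, at 0.191 to 1.01% of UMIs and the delta-cell hormone gene Sst at 0.778 to 3.21%. No member of mice 1 or 3 did, where the highest values were 0.0104% for Spp1 and 0.261% for Sst. These 48 barcodes had a median rule-gene share of 33.0%, and 47 were under 40%. They were shallower, with a median of 5816 UMIs against 17660 in the other 60 members of mouse 2, and their median hormone share was 6.57% against 1.75%. All 48 had UMIs of at least 3 duct markers. Whether these are cells of several types in 1 droplet was not tested. Member shares and called genes are given with and without them where they differ. Gene numbers after thinning, correlations and variable genes are given only with them. The block was set, after the data were seen, as at least 0.1% Spp1 and 0.5% Sst. Kept barcodes outside the members also passed those limits, 36, 51 and 44 of them in mice 1, 2 and 3, with median Spp1 of 0.628%, 0.173% and 0.312% and median Sst of 0.709%, 3.22% and 0.746%. With the 48 barcodes left out of members and kept barcodes alike, mouse 2 had 60 members, or 2.26%, below the 2.62% of mouse 1. The mean share was then 1.78%.

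**Figure D1:**
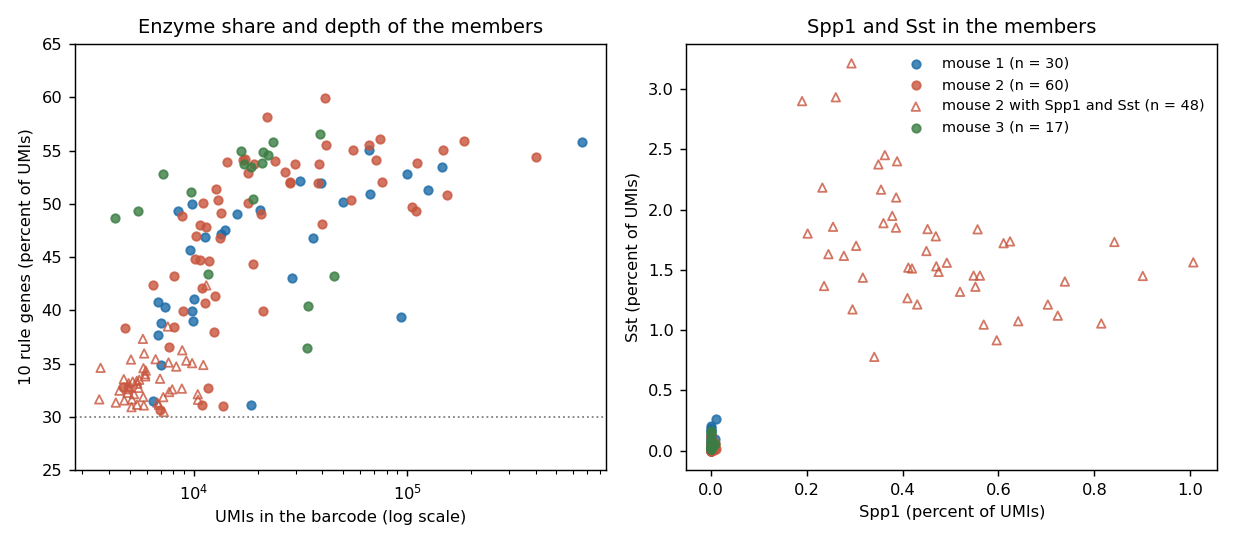
Left, the share of UMIs from the 10 rule genes (percent) against UMIs per barcode (log scale) for each of the 155 members, coloured by mouse, with the 30% limit dotted. Right, Sst against Spp1 (both percent of UMIs) in the same barcodes. The 48 mouse 2 members drawn as open triangles lie near the 30% limit on the left and away from all other members on the right.

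The label was checked against markers. All 155 members held UMIs of every rule gene, which the rule favours, but insulin-rich barcodes also held Ctrb1 in 98.0% of cases, so detection alone did not separate the cells. The T cell, B cell, endothelial, macrophage, pericyte, fibroblast and Schwann lists each reached 3 markers in 0 members. Cdh5, Kdr, C1qc, Lyz2, Adgre1, Csf1r and Pdgfrb were at 0 in all members. Summed endothelial markers were at 0.611, 2.57 and 8.58 CPM (UMIs of the gene scaled to 1000000 UMIs of the class) in members of mice 1, 2 and 3, against 335, 229 and 384 CPM in the others. At least 3 beta-cell markers were seen in 154 members, 3 alpha-cell markers in 24, 3 delta-cell markers in 24 and 3 duct markers in 61, of which 54 were in mouse 2. The acinar markers checked were the rule genes themselves, so they give no separate check of the label. Hormone and, in mouse 2, duct RNA accompanied them.

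The limit of 30% fell in a gap in mice 1 and 3 and within a continuum in mouse 2. Mouse 1 had 0 kept barcodes between 25 and 30% rule-gene UMIs and 3 between 30 and 35%. Mouse 3 had none between 20 and 35%. Mouse 2 had 14 between 25 and 30% and 43 between 30 and 35%. The 5 barcodes just inside the limit held 30.5 to 31.1% and the 5 just outside held 28.3 to 29.8%, and all 10 were from mouse 2.

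The rule genes took 51.6%, 49.9% and 49.3% of member UMIs in mice 1, 2 and 3, against 0.436%, 1.32% and 0.115% in the other kept barcodes. These values come from the choice of cells and are a description. Levels of enzyme and granule genes are given as CPM of all UMIs of the class. Each molecule is counted once at its 3′ end, so levels were not divided by gene length. Ctrb1, a chymotrypsinogen at chr8:111686519-111691010 (mm10), was highest, at 126500, 142600 and 162300 CPM in members of mice 1, 2 and 3, against 1043, 3770 and 316 in the others. The members exceeded the others of the same mouse by more than an order of magnitude, and mouse 2 was highest among the others. Prss2, a trypsinogen in the trypsinogen cluster of chromosome 6 (chr6:41521787-41525079), had 71470, 70310 and 63280 CPM. The chymotrypsin-like elastases Cela2a, Cela1 and Cela3b had mean levels of 6.53%, 4.23% and 3.27% of UMIs. The triglyceride lipase Pnlip had 56970, 47910 and 30750, and its cofactor colipase, Clps, had 34860, 31930 and 69680. Pnlip was thus lowest and Clps highest in mouse 3. The carboxypeptidases Cpa1 and Cpb1 followed at 2.40% ± 0.415 and 2.18% ± 0.492 (SD, n = 3 mice). Zg16, a granule membrane lectin, was the lowest rule gene and the most even, at 13570, 14220 and 13570.

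Enzyme genes outside the rule travelled with it and were not tested. The 23 other digestive enzyme genes in the files took 28.3%, 27.0% and 24.7% of member UMIs, so that enzymes alone filled most of each library of members. The trypsinogen genes Try5 and Try4 reached 6.34% ± 0.747 and 5.59% ± 1.26 of UMIs. Reads of near-identical trypsinogens, amylases and Reg genes may be split between copies, and the values of single copies are uncertain. Amylase was counted mostly under Amy1, at 29380, 20460 and 18300, while Amy2a5 had 583, 599 and 226 and Amy2a1 had 0. The bile-salt-dependent lipase Cel had 9834, 7514 and 5252. The chymotrypsinogens Ctrl and Ctrc had means of 1.95% and 1.64%. The Ctrc model overlaps Cela2a over 11199 bases on the same strand. The ribonuclease gene Rnase1 had 1.61% ± 0.102. Prss1 was low, between 9.17 and 97.2 CPM.

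Of the granule genes, Sycn, which encodes the syncollin of the granule membrane, stood at 1.46%, 1.55% and 1.48% of UMIs. Spink1, the trypsin inhibitor of the pancreas, had 2583, 3124 and 3622 CPM. Tff2, a trefoil peptide, had 2495, 2891 and 3903. Dmbt1, a mucin-like scavenger protein, had 569, 1173 and 2018. These 3 were lowest in mouse 1 and highest in mouse 3. The median rule-gene share of the members did not have that order, at 47.0%, 38.4% and 52.8%. The kallikrein Klk1 had 0.291% ± 0.0652 and the granule glycoprotein Gp2 had 0.143% ± 0.0271.

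**Figure D2:**
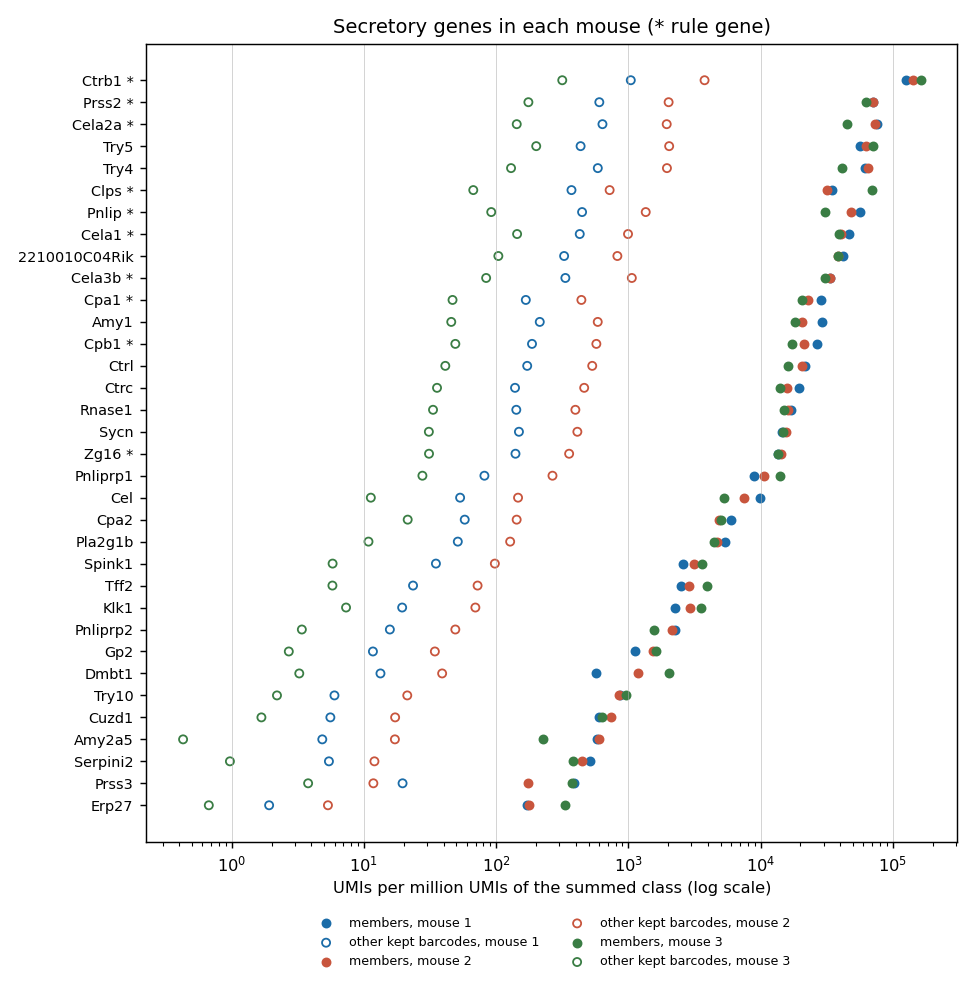
CPM of the summed class (log scale) for the rule genes (starred) and the other enzyme and granule genes, with members as filled and all other kept barcodes as open circles, coloured by mouse. Members lie to the right of the others of the same mouse for each gene drawn, and the open circles run in the order mouse 3, mouse 1, mouse 2 for nearly every gene.

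The mixture of enzyme RNA differed between mice. Ctrb1 made up 24.5%, 28.6% and 32.9% of the rule-gene UMIs of members in mice 1, 2 and 3. Clps made up 6.75%, 6.39% and 14.2%. Cela2a made up 14.8%, 14.8% and 9.20%, and Pnlip 11.0%, 9.60% and 6.24%. In mouse 3 the Clps share was 2.15 times the mean of mice 1 and 2, Cela2a 0.621 times and Pnlip 0.605 times. The shift was seen within single barcodes, since the median Clps share of members was 4.34%, 4.11% and 13.3%. The ranges still overlapped, from 0.976 to 12.6%, 1.41 to 10.6% and 1.25 to 24.5%. With 1 mouse showing it, no test applies, and the 17 members of mouse 3 are not replicates.

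The rule genes in the other kept barcodes were compared with those of the members of the same mouse. The share that would have to be moved between genes to turn one mixture into the other was 4.19 percentage points in mouse 1, 3.16 in mouse 2 and 13.9 in mouse 3. Clps carried most of the difference in mouse 3, where it made up 2.42 times as much of the mixture in members as in the others. Among the others, its share in mouse 3 was 0.837 times the mean of mice 1 and 2. In mice 1 and 2 the ratio of members to others for Clps was 0.793 and 1.17.

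**Figure D3:**
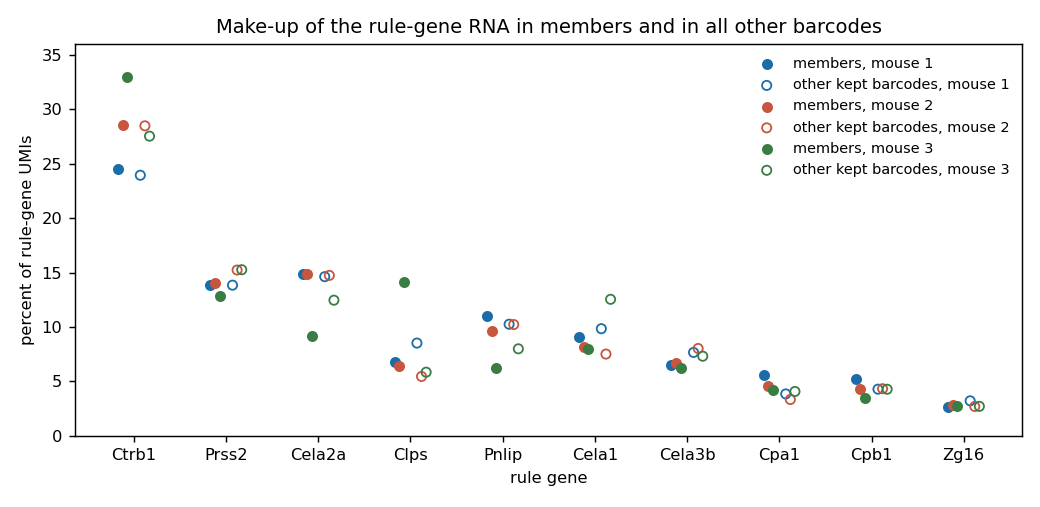
Each rule gene as a percent of the summed rule-gene UMIs in members (filled) and in all other kept barcodes (open), coloured by mouse. In mouse 3 the members reach 14.2% Clps and 32.9% Ctrb1, and lie below the other mice for Cela2a and Pnlip.

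Members used few genes for their depth. With each barcode thinned to 1500 UMIs, the median number of genes was 172.5, 232.5 and 173 in members of mice 1, 2 and 3. All 155 members were deep enough to be thinned. The mean over mice was 193 ± 34.5 (SD, n = 3) in members, 515 ± 86.1 in all other kept barcodes, 359 ± 27.1 in insulin-rich barcodes and 876 ± 46.6 in duct-gene barcodes. Members were lower than the others in each mouse. Before thinning the medians were 812.5, 951.5 and 920 genes in members and 1601, 1209 and 3055 in the others. The rule selects barcodes in which 10 genes fill much of the library, so a low number of genes goes with the choice of cells.

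Within the members, the enzyme share went with depth in mice 1 and 2. Spearman's rho across barcodes between rule-gene share and UMIs was 0.729 in mouse 1 (n = 30), 0.803 in mouse 2 (n = 108) and 0.0833 in mouse 3 (n = 17). Barcodes of a mouse share 1 library, so these are descriptions. The mouse 2 value includes the 48 members with Spp1 and Sst, which were shallower and lower in rule-gene share than its other members. Outside the rule genes, the most variable genes after thinning were Gm42418, a ribosomal-RNA-like transcript, then Ins2, Ins1, the nuclear RNA Malat1, Try5, Try4, mt-Co3, Reg1, mt-Atp6 and mt-Co2. Hormone, mitochondrial and nuclear RNA thus varied beside enzymes. Of 1500 UMIs, Gm42418 had a median of 85.0 in mouse 1, 76.5 in mouse 2 and 8.00 in mouse 3.

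UMIs were then summed per mouse over members and over all other kept barcodes, and genes outside the rule were tested across the 3 mice with edgeR's quasi-likelihood test, with the mouse as a block and Benjamini-Hochberg adjustment over all genes. A gene passed at an adjusted p (FDR) of 0.05. The cells were chosen by acinar genes, so other acinar genes were bound to go with them, and p-values do not measure the choice of cells. They rest on a spread over mice that the test shares across genes, so a very small FDR does not mean that the 3 mice were even. Reg3g, at 120, 41.2 and 242 CPM in members, had FDR = 5.04e-117, and the more even Reg3d, at 899, 646 and 654, had FDR = 9.50e-04. Of 12928 genes tested, 1039 were higher in members (8.04%) and 1197 lower (9.26%). The median log2 fold change of all genes was -0.50 after TMM scaling and -1.88 without it. The counts without TMM were 277 higher and 8032 lower. Whether the enzymes that filled member libraries set this was not tested. Without the 48 mouse 2 members that held Spp1 and Sst the counts were 1071 and 1500. Without barcodes over 100000 UMIs they were 516 and 519.

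Genes were named where they passed, had the same sign in all 3 mice, differed by at least 1 on the log2 scale and had at least 100 CPM in the higher class. The Reg family gave 5 of the 12 largest increases under that rule. These genes, clustered on chromosome 6 from Reg3b (chr6:78370657-78373466) to Reg3g (chr6:78466269-78468872), encode small secreted C-type lectins, of which Reg1 is the pancreatic stone protein and Reg3 proteins bind bacteria and rise in pancreatitis. Reg1 had 113432, 111535 and 75995 CPM in members of mice 1, 2 and 3 and 150, 578 and 38.4 in the others, where CPM here and in all tests is TMM-scaled and leaves out the rule genes. The log2 fold change was 9.39 ± 0.51 (SE; FDR = 3.73e-68). The members were far above the others in every mouse. Reg2 had 5062, 10866 and 13658 CPM in members and 8.99, 64.4 and 11.9 in the others (log2 8.91 ± 0.39, FDR = 4.49e-89). With free RNA subtracted Reg2 kept its direction and did not pass (17.12, FDR = 0.249). Reg3b had 659, 968 and 4406 CPM in members, so that mouse 3 was highest, and 0.744, 4.41 and 3.08 in the others (9.34 ± 0.44, FDR = 9.28e-16). Reg3g and Reg3d were higher by 9.06 and 9.01 on the log2 scale. Reg3a differed by 9.43 and did not pass (FDR = 0.0890). Of 9 tested genes of the list of 13, 7 were higher, among them Nupr1, a stress-induced chromatin protein, at 6.15 ± 0.30, and the chaperone Clu at 2.24 ± 0.24. Lcn2, an iron-binding acute-phase protein, was lower (-2.18 ± 0.54). Reg3a, Clu and Lcn2 are named after their values were seen. The list median was 9.01, against -0.50 over all genes tested. Reg3b no longer passed without barcodes over 100000 UMIs (FDR = 0.182), with the limit at 250 genes (0.0621) or without barcodes shared between libraries (0.0962), while its log2 fold change stayed between 8.5 and 9.47.

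The other 7 of the 12 largest increases were Aqp12, Klk1b5, Pdia2, Cabp2, Hamp2, Tmed11 and Cckar. Aqp12, an aquaporin of acinar cells, had 627, 447 and 352 CPM in members and at most 2.14 in the others (9.21 ± 1.09, FDR = 0.0288). Pdia2, a disulfide isomerase of the pancreas, had 2019, 1030 and 440 CPM against at most 7.25 (8.82 ± 0.74, FDR = 5.16e-04). Cckar, the receptor for cholecystokinin, had 106, 171 and 148 CPM against at most 1.87 (7.95 ± 1.10, FDR = 0.0261). All members' sums were above those of the others for these 3. Klk1b5 (8.93), Cabp2 (8.62), Hamp2 (8.59) and Tmed11 (8.38) were also higher on the log2 scale. Klk1b5 lies 4657 bases from Klk1, and the Tmed11 model overlaps Vmn2r8 on the same strand. Without mouse 1 Aqp12, Reg3d and Cckar no longer passed (FDR = 0.438, 0.209 and 0.438), nor did Pdia2 without mouse 3 (FDR = 0.173), while their log2 fold changes were 7.99 to 9.17. The calls of Aqp12, Pdia2 and Cckar were also lost with the limit at 250 genes (FDR = 0.0970, 0.0505 and 0.125), without barcodes shared between libraries (0.0860, 0.0522 and 0.0938), without the filter on low counts (0.0834, 0.0511 and 0.0873) and with enzyme genes out of the scaling (0.0792, 0.0689 and 0.0997). Aqp12 and Cckar were lost without barcodes over 100000 UMIs (FDR = 0.127 and 0.0940), Aqp12 without members of 10% or more hormone UMIs (0.0573), and Pdia2 with mitochondrial UMIs limited to 10% (0.0608) or free RNA subtracted (0.0846). Reg3d was lost at 250 genes (FDR = 0.0737), with enzyme genes out of the scaling (0.0686) and with free RNA subtracted (0.114). These folds stayed at 7.42 or more on the log2 scale.

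Of 12 tested transcription factors of acinar identity, 7 were higher and 1 lower, with a median log2 fold change of 2.03. Without TMM 5 were higher and 3 lower (median 0.75). As a share of all UMIs the summed list was not higher, at 0.0133%, 0.0173% and 0.0275% in members and 0.0261%, 0.0231% and 0.0271% in the others. Ptf1a had 40.9, 39.9 and 76.9 CPM in members and at most 0.360 in the others (8.25 ± 0.50, FDR = 3.35e-57). It was detected in 28 of the 155 members (18.1%), against 0.571% of insulin-rich barcodes, a class that should lack it and had median depths of 9295, 7224 and 31610 UMIs. Rbpjl, its partner, was higher by 5.90 ± 0.83, and the zinc-finger factor Gata4 by 6.56 ± 0.66. Bhlha15 (Mist1), which organises granules, had 38.1, 51.8 and 38.5 CPM against 2.32, 4.11 and 2.48 (3.83 ± 0.40, FDR = 1.31e-19). Xbp1, which expands the endoplasmic reticulum, was higher by 1.82 ± 0.23 (FDR = 1.71e-13), but by 0.53 without TMM (FDR = 0.120) and by -0.51 with each barcode thinned to 1500 UMIs. Pdx1, shared with beta cells, was lower, at 0, 10.6 and 11.0 CPM against 24.3, 39.7 and 23.2 (-2.14 ± 0.49).

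Genes of protein folding and entry into the endoplasmic reticulum moved in more than one direction. Of 25 folding and unfolded-protein-response genes 13 were higher and 3 lower (median 0.74), but 5 and 12 without TMM (median -0.57). Over all 12928 genes tested, 277 were higher and 8032 lower without TMM (median -1.88). The disulfide isomerase Pdia2, described above, is in this list and had a larger fold (8.82) than the genes named next. Edem1, which recognises misfolded glycoproteins, was higher by 4.12 ± 0.27, Sel1l, of the ubiquitin ligase complex, by 3.87 ± 0.25, and Derl3, of the exit channel, by 4.94 ± 0.37. Sel1l had 286, 354 and 187 CPM in members and 18.7, 25.2 and 12.9 in the others (FDR = 3.23e-51). P4hb, a disulfide isomerase, was higher by 2.90 ± 0.23. Of 24 translocation and glycosylation genes 12 were higher and none lower (median 0.65), while without TMM 1 was higher and 11 lower (median -0.68). Sec11c, of the signal peptidase, was higher by 2.16 ± 0.23 and Tram1, of the translocon, by 1.72 ± 0.24. With each barcode thinned to 1500 UMIs, which weights every member alike, both list medians were below 0 (-0.59 and -0.46), against -1.20 over all genes. Thinned in this way, Sel1l, P4hb, Sec11c and Tram1 kept their direction and did not pass (FDR = 0.359, 0.316, 0.871 and 0.638). Derl3 did not pass without mouse 3 (FDR = 0.0835).

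Amino acid genes had the highest list median after the Reg family and the transcription factors. Of 14 tested, 10 were higher and 2 lower, with a median of 1.72, or 0.36 without TMM. Gatm and Gamt, the enzymes that make creatine from arginine and glycine, were both higher. Gatm had 403, 440 and 489 CPM in members and 14.6, 12.8 and 17.2 in the others (4.91 ± 0.25, FDR = 1.15e-80). Gamt had 515, 372 and 236 CPM against 5.15, 4.66 and 2.97 (6.43 ± 0.28, FDR = 2.03e-115). With free RNA subtracted Gamt kept its direction and did not pass (8.065, FDR = 0.28). Gnmt, which takes methyl groups from S-adenosylmethionine, was higher by 5.87 ± 0.41, and asparagine synthetase, Asns, by 3.47 ± 0.26.

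Release and coupling genes were mixed. In the exocytosis list 4 of 13 were higher and 3 lower. Rab3d, the Rab protein of zymogen granules, had 139, 74.4 and 49.4 CPM against 10.8, 13.6 and 10.6 (2.87 ± 0.31, FDR = 1.37e-18), although with each barcode thinned to 1500 UMIs its log2 fold change was -0.22. Vamp8, a granule SNARE, was higher by 1.72 ± 0.24, while Sytl4, of endocrine granules, was lower (-2.04 ± 0.46), a call that did not pass without mouse 1 (FDR = 0.0510). In the list of secretagogue receptors and calcium release 2 of 10 were higher, Cckar and Itpr2, and 2 lower, Itpr1 (-2.27 ± 0.42) and Atp2a2 (-1.37 ± 0.27). The Itpr2 call (1.48, FDR = 0.0246) was lost without mouse 2 (-0.04) and without mouse 1 (1.82, FDR = 0.0660), with free RNA subtracted (1.04, FDR = 0.434) and with DESeq2 (0.98, FDR = 0.378). Gjb2 and Gjb1, the gap junction proteins of acinar cells, were higher by 6.78 ± 0.54 and 3.97 ± 0.41, and the tight junction gene Cldn10 by 2.43 ± 0.32. Thinned to 1500 UMIs, Vamp8, Sytl4, Itpr1, Atp2a2 and Cldn10 kept their direction and did not pass (FDR = 0.627, 0.323, 0.312, 0.299 and 0.326). Vamp8 did not pass without TMM either (0.42, FDR = 0.228).

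Housekeeping lists turned with the scaling, which moved the genes as a whole. Without TMM 277 of all 12928 genes tested were higher and 8032 lower, and list counts are to be read beside these. Ribosomal protein genes were higher in 75 of 76 tested with TMM (median 1.33), but in 5 without TMM, where 1 was lower (median 0.04). As a share of all UMIs they took 2.56%, 3.03% and 4.83% of members and 6.76%, 5.60% and 7.23% of the others. Oxidative phosphorylation genes were higher in 13 of 20 with none lower (median 0.89), and without TMM 1 was higher and 6 lower (median -0.42). Their share of all UMIs was 0.115%, 0.140% and 0.204% in members and 0.401%, 0.355% and 0.374% in the others. Autophagy and lysosome genes were higher in 4 of 13 with none lower, and lower in 6 with none higher without TMM. Immediate-early genes, which mark dissociation stress, were lower in 8 of 17 and higher in none, and lower in all 17 without TMM. Junb was the first of them by p (68.1, 198 and 275 CPM against 363, 367 and 442).

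**Figure D4:**
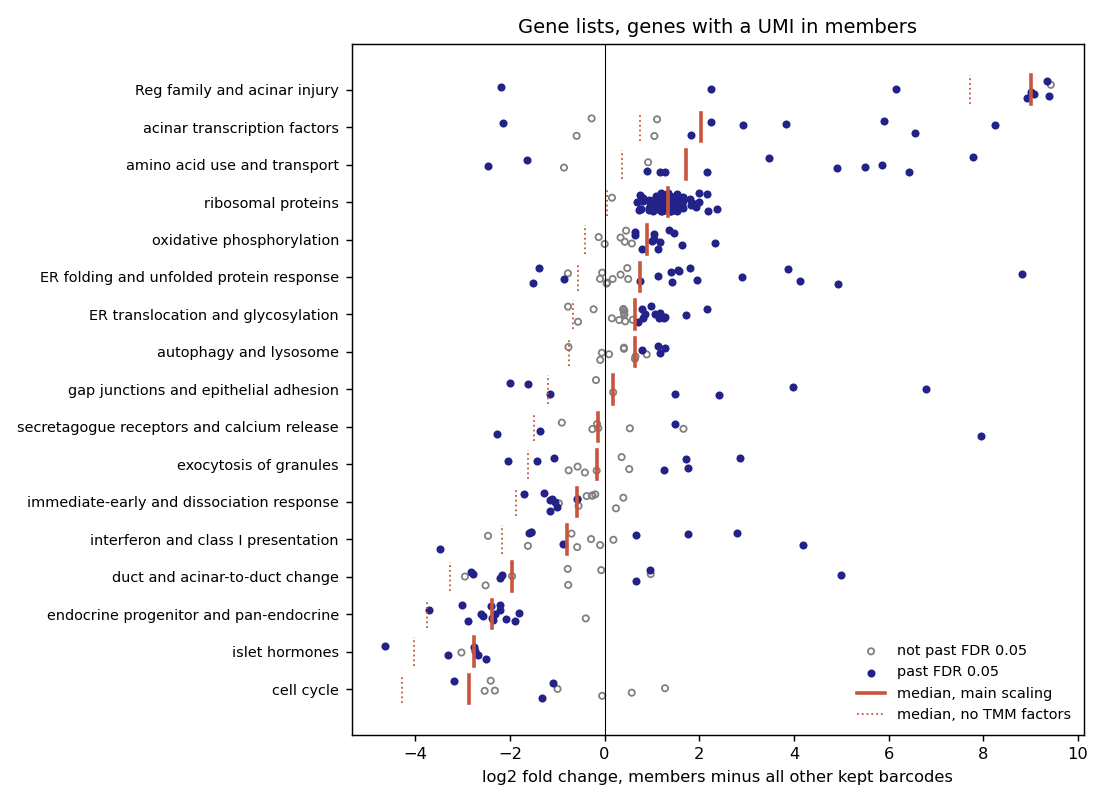
Log2 fold change of members against all other kept barcodes for each tested gene of a list that had a UMI in members, filled where FDR was under 0.05. Solid bars are list medians under TMM scaling over all tested genes, and dotted bars are medians without TMM. The Reg, transcription factor and amino acid medians stay above 0 on both scales, while ER, oxidative phosphorylation and autophagy medians change sign.

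Endocrine genes were lower in members. Of the 16 tested progenitor and pan-endocrine genes, 15 were lower and none higher (median -2.37). Chga, chromogranin A of endocrine granules, had 488, 255 and 203 CPM in members against 1792, 2498 and 2378 (-2.89 ± 0.25, FDR = 1.15e-28). Of 7 hormone genes 6 were lower, with Ppy at -4.64 ± 0.32. Sst did not pass (-3.02 ± 0.81, FDR = 0.0523). Without the 48 mixed barcodes all 7 passed, but those barcodes were picked by their Sst share, so the Sst call there follows from the choice. The class II genes H2-Ab1 (-5.97), H2-Eb1 (-5.88), Cd74 (-5.47) and H2-Aa (-5.06), which present antigen in macrophages and other immune cells, had the largest decreases under the naming rule. Macrophage markers summed to 233, 190 and 471 CPM in the others and to 3.67, 3.67 and 5.72 in members. The matrix genes Igfbp7 and Sparc of vessel and stromal cells were lower too (-3.15 ± 0.27 and -2.97 ± 0.33). With free RNA subtracted Igfbp7 kept its direction and did not pass (-5.32, FDR = 0.331). The beta-cell zinc transporter Slc30a8 (-2.64), Tmsb15b2 (-2.85), Fam183b (-2.61) and Dbpht2 (-2.60) were lower as well. Thinned to 1500 UMIs, Slc30a8, Fam183b and Dbpht2 kept their direction and did not pass (FDR = 0.0533, 0.316 and 0.311). Vip (-3.43) was measured mainly in mouse 1, at 38.1 CPM in members and 406 in the others, and it did not pass without barcodes over 100000 UMIs (-0.81, FDR = 0.531).

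Interferon and class I genes split, with 4 of 18 higher and 5 lower. Without TMM 2 were higher and 14 lower, beside 277 and 8032 of all 12928 genes tested. Psmb10, a proteasome subunit, was higher by 4.19 ± 0.25 and Ifitm3, an antiviral membrane protein, by 2.79 ± 0.23. Psmb10 lies 1873 bases from the enzyme gene Ctrl on the same strand. Bst2, which tethers virus particles, was higher by 1.76 ± 0.27, but did not pass without TMM (0.46, FDR = 0.227). With each barcode thinned to 1500 UMIs neither Ifitm3 nor Bst2 passed (FDR = 0.641 and 0.745). Among the lower genes, Psmb8, another proteasome subunit, did not pass without barcodes over 100000 UMIs (-1.32, FDR = 0.0577). Ifit1, at 0 in members, was at least 2.33-fold lower against a floor of 3 counts over the group (FDR = 0.0299). In the cell cycle list 4 of 18 were lower and none higher, and 8 had no UMI in any member. Ube2c, at 0 in members, was at least 2.76-fold lower, set against a floor of 3 counts over the group, and did not pass without mouse 1 or mouse 2 (FDR = 0.194 and 0.268).

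Duct-gene barcodes, the other exocrine epithelium, were kept barcodes with at least 4 of 10 duct markers and under 10% each of rule-gene and hormone UMIs. There were 264, namely 33, 91 and 140 in mice 1, 2 and 3. Gate and hormone genes were taken out of this comparison and of the one with insulin-rich barcodes. Both were scaled in a fit of their own, so CPM of the same members differs from that against all others. Levels are not to be compared between the fits. Of 10803 genes tested, 1382 were higher in members (12.8%) and 1578 lower (14.6%), and without TMM 174 were higher and 9564 lower. The Reg genes again had large values, with Reg3b at 11.12 ± 1.14 (FDR = 0.00313) and Reg1 at 10.41 ± 1.42 (FDR = 0.00819). Reg1 did not pass without mouse 1 or mouse 3 (FDR = 0.170 and 0.0618), nor Reg2 without mouse 1 (FDR = 0.121). The neuropeptide gene Gal had 233, 312 and 383 CPM in members and at most 0.301 in duct-gene barcodes (10.86 ± 0.70, FDR = 9.87e-08). The sulfotransferase Chst2 (10.35 ± 0.48) and the ATP-gated channel P2rx1 (10.07 ± 0.53) were higher with similar size.

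Duct-gene barcodes were higher for C3, complement component 3, at 97.3, 113 and 245 CPM. Members had no UMI of it in any mouse, which makes members at least 34.6-fold lower. Ankrd1, a target of YAP signalling, and the protease Mmp7 were also at 0 in members, at least 31.8-fold and 24.9-fold lower. Lcn2 had 0, 17.5 and 0 CPM in members against 332, 356 and 958 (-5.44 ± 0.37, FDR = 2.96e-23). Sbspon (-6.76), Msmp (-6.34), Trf, the iron carrier transferrin (-6.11), and Tm4sf1 (-5.06) were lower, and in mouse 1 and mouse 3 members these 4 were at 0. The keratin genes Krt8 and Krt18 of simple epithelia were lower in members (-1.44 ± 0.19 and -1.35 ± 0.18). The mucin Muc1, on the apical side of both cell types, was higher in members (1.98 ± 0.21), at 313, 260 and 202 CPM against 71.3, 59.7 and 67.5. The adhesion gene Epcam was lower (-2.80 ± 0.21). Gatm was at 784, 827 and 947 CPM in members and at most 1.85 in duct-gene barcodes (9.49 ± 0.32).

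By list against duct-gene barcodes, 16 of 25 folding genes were higher and 1 lower (median 1.86), 19 of 24 translocation genes were higher and 1 lower (1.34), and 11 of 14 amino acid genes were higher and 2 lower (4.70). The median over all genes was -0.25, and -2.71 without TMM, under which the folding and translocation medians were -0.58 and -1.10. Immediate-early genes were lower in 11 of 17 and higher in 2, and interferon and class I genes lower in 10 of 17 and higher in 3. Endocrine genes were higher in 7 of 14 and lower in none, and without the 48 mixed barcodes in 5. Duct-gene barcodes were held under 10% hormone UMIs and members were not, so the gate favours this direction.

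Insulin-rich barcodes, in which Ins1 and Ins2 made up at least 30% of UMIs, are secretory cells chosen by a rule of the same form. There were 1576, or 195, 945 and 436 in mice 1, 2 and 3. Of the same 10803 genes, 1523 were higher in members (14.1%) and 1768 lower (16.4%), and without TMM 360 and 9444. The largest increases were again Reg genes, from Reg3g at 9.79 ± 0.41 (FDR = 3.02e-64) to Reg2 at 9.32 ± 1.04 (FDR = 0.00384), with Pdia2, Aqp12 and the plasma protein gene Itih4 at 9.09, 8.78 and 8.71. Reg1 and Reg2 did not pass without mouse 1 (FDR = 0.161 and 0.121), and Reg1 and Pdia2 not without mouse 3 (FDR = 0.0672 and 0.0872). The largest decreases were beta-cell genes, which goes with the choice of these barcodes by their insulin share. Nkx6-1, a beta-cell transcription factor, had 15.9, 5.00 and 0 CPM in members against 272, 260 and 298 (-5.12 ± 0.82, FDR = 0.00371). Ucn3, a marker of mature beta cells, was lower (-4.11 ± 0.33), as was G6pc2, the islet glucose-6-phosphatase (-3.94 ± 0.27). Papss2 (-4.50), Fkbp1b (-4.33), Vstm2l (-4.29), Ppp1r1a (-4.11) and Disp2 (-4.11) completed the 8.

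Protein-export genes were then compared between these secretory cells and the members. Folding genes were higher in 10 of 25 and lower in 3 (median 0.01), and translocation genes higher in 7 of 24 and lower in 3 (median 0.21), against -0.29 over all genes. Sel1l (3.48 ± 0.20) and Edem1 (3.16 ± 0.20) were higher in members, while Pdia3, a folding enzyme of glycoproteins named after its values were seen, was lower (-1.78 ± 0.20), at 191, 217 and 170 CPM against 655, 788 and 585. The calcium pump Atp2a2 was lower too (-2.71 ± 0.22). Gjb1 and Gjb2 were higher by 8.20 ± 0.50 and 7.90 ± 0.66 and Gjd2 lower (-3.31 ± 0.45). Of 17 immediate-early genes 3 were higher, 4 lower and 10 did not pass (median -0.31, against -0.29 over all genes). Among the higher ones, Atf3, a stress-induced transcription factor named after its values were seen, differed by 2.92 ± 0.19. It was at 556, 857 and 713 CPM against 90.8, 87.0 and 108. Ribosomal protein genes were higher in 76 of 76 with TMM and in none without it, where 33 were lower. Over all 10803 genes tested, 9444 were lower without TMM.

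Hormone genes made up 1.91%, 2.02% and 1.58% of summed member UMIs in mice 1, 2 and 3, unevenly between barcodes. In 6 members, 1 of mouse 1 and 5 of mouse 2, they made up at least 10%, up to 16.2% and 33.1%, and the member at 33.1% held 31.1% rule-gene UMIs. Ins1 and Ins2 together made up 0.888%, 1.64% and 0.384% of member UMIs in mice 1, 2 and 3. Endothelial and macrophage barcodes, which should lack insulin, held 3.52%, 3.52% and 1.16%. As shares of all UMIs, summed member values were below that background in each mouse. Enzyme and granule genes took 82.4%, 79.8% and 77.1% of member UMIs, and 1.1%, 3.7% and 0.55% in endothelial and macrophage barcodes. This fill lowers every other share of the members, hormone shares included. Shares of the UMIs outside these genes were not compared, so the values do not show which class held more hormone RNA there. The source of the insulin UMIs was not tested, and they are not read as expression by acinar cells. Gcg, the glucagon gene, was at 9506, 722 and 10640 CPM in members and at 3525, 3306 and 6271 in endothelial and macrophage barcodes, so members were above that background in mice 1 and 3. A single barcode held 14444 of the 15553 member UMIs of Gcg in mouse 1 and 2942 of 3722 in mouse 3. Without these barcodes the members were at 719 and 2472 CPM, below the background as a share of all UMIs. The enzyme fill lowers these member values too. Enzyme RNA ran the other way in the same manner. The rule genes made up 0.687%, 2.25% and 0.346% of endothelial and macrophage barcodes. In barcodes under 250 genes their median share was 2.39%, 29.3% and 1.52%. Mouse 2 had the most members, 108, or 60 without the mixed barcodes, and also the highest rule-gene share in the low-gene barcodes and in the endothelial and macrophage barcodes.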

How the data were processed

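The measurement was droplet single-cell RNA counting in dissociated islets of 3 mice, 1 library each. The authors deposited whole-number UMI counts per gene and barcode, not normalized. Per the submitters' processing notes these came from Cell Ranger 2.2 on mm10, while per the file headers the matrices were written by software version 3.1.0. How barcodes were called as cells is not given in the sources used here. The numbers 1 to 3 of the mice follow the order of the samples and pair nothing else.

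The members and the gene lists were chosen with earlier results of these data known. Barcodes under 500 genes, or with mitochondrial transcripts above 15% of their UMIs, were left out, and members were then taken by the 30% rule. Doublets were left in, since Scrublet's automatic threshold marked 9, 9 and 13 barcodes. Counts were summed per mouse and class and tested with edgeR 4.0.16 in R 4.3.3 (filterByExpr, TMM scaling, robust glmQLFit and glmQLFTest, mouse as block, Benjamini-Hochberg over all genes), 6 sums for members against all others and 9 sums for the other comparisons in 1 fit. The block rests on both sums coming from the same animal. Rule genes, and in the 9-sum fit also gate and hormone genes, were taken out of counts and library sizes. The enzyme and granule lists were kept in the fit and described by levels only. On simulated counts for the 12315 genes of members against all others, the test recovered 12% of genes changed by 1 and 70% of those changed by 2 on the log2 scale.

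Named genes were the 12 largest differences in each direction against all others and the 8 largest against each other class, under the limits given in the text and outside the enzyme, granule and hormone lists and numbered gene models, plus up to 4 genes of the smallest p per list. Annotation positions matched 30934 of 31053 features. Promoters came from RefSeq. Alternatives covered the member limit, the filters on genes and mitochondrial share, doublets, shared barcodes, free RNA, DESeq2 1.42.0, scaling, the count filter, the block and leaving out each mouse. Alternatives chosen after seeing the data left out barcodes over 100000 UMIs or the members with Spp1 and Sst, thinned barcodes to 1500 UMIs, or took enzyme and granule genes out of the scaling. Python 3.11.15 with scanpy 1.11.5 was used for sums and thinning.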

Additional observations from a re-analysis of the deposited data

Results flagged for a closer look

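Barcodes that failed the limits on genes or mitochondrial UMIs, and so entered no comparison, also held enzyme RNA at the level that defines the members. Mouse 1 had 23 of 4860 such barcodes with at least 30% rule-gene UMIs, mouse 2 had 331 of 1739 and mouse 3 had 60 of 2073. In mouse 2 these were 19.0% of the barcodes left out, and they were more numerous than its 108 members. Nearly all failed on the number of genes, namely 22, 329 and 59 with under 500. Their median depth was 3753, 2543 and 1008 UMIs and their median number of genes 365, 255 and 179, below the members of the same mouse. Their median hormone share was between 8.47% and 11.9% in the 3 mice. With the limit lowered to 250 genes the members numbered 45, 283 and 31. Whether these barcodes were cells or droplets of free RNA was not tested.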

How the results depend on the processing

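The shares of members ranged from 0.762% to 3.25% (mean of 3 mice) over the limits tried, with mouse 2 at 2.26% in place of 3.99% without the members that held Spp1 and Sst, and the rule-gene mixture moved by more than its spread only for Zg16, from 2.74% to 2.86% of rule-gene UMIs with the member limit at 50%. The other alternatives changed the numbers of called genes, by edgeR's quasi-likelihood test unless named. Without TMM, 277, 174 and 360 genes were higher in members than in all others, duct-gene and insulin-rich barcodes, and 8032, 9564 and 9444 lower. Thinned to 1500 UMIs, 31, 68 and 100 were higher and 31, 147 and 159 lower, in sums that hold far fewer counts. With free RNA subtracted, 564 and 803 were higher than in all others and in duct-gene barcodes. Without barcodes over 100000 UMIs, 516 were higher and 519 lower than in all others, and 1169 lower than in insulin-rich barcodes. DESeq2 gave 664 lower than in all others. Leaving out 1 mouse each gave 464 to 1085 higher and 380 to 1008 lower against all others, 794 to 1530 and 824 to 1270 against duct-gene barcodes, and 791 to 1555 and 799 to 1499 against insulin-rich barcodes. Counts moved by over 1.5 times without mouse 1 (613 higher and 380 lower against all others, 824 and 1058 lower against duct-gene and insulin-rich barcodes) or mouse 2 (464, 794 and 791 higher, 567, 901 and 799 lower in the same order), and not without mouse 3. Beside the calls given in the report, against all others Rab27b, Epcam, Tspan8, Psmb8 and Stmn1 lost their calls without mouse 1, Hmgb2, Gabarap and Vmp1 without mouse 1 or mouse 2, and Tuba1b without mouse 1 or mouse 3. The fit without the replicate block, which drops the pairing of sums by animal, gave 1166 higher and 1464 lower, 1316 and 1456, and 1431 and 1699, all within 1.5 times the counts with it. Of the named genes, 9 against all others lost their calls without the block (H2-Aa, Vip, Tmsb15b2, Itpr2, Vim, Ins1, Junb, Hspa1a and Stmn1, at FDR = 0.0589, 0.611, 0.109, 0.0572, 0.0842, 0.0572, 0.0523, 0.0709 and 0.0817), as did Ankrd1 (0.0541) and Mmp7 (0.146) against duct-gene barcodes, and no other named gene did.

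Of the values of named genes, 2267 kept direction and call, 154 kept direction and lost the call, and 19 turned direction, with causes not tested. Thinning to 1500 UMIs gave 37 of the lost calls, the most of any alternative, beside 49 values kept and 11 turned. Thinning turned Xbp1 (-0.51), Ssr4 (-0.23), Srp9 (-0.46), Rab3d (-0.22), Itpr2 (-0.80), Cox5a (-0.22), Ndufb9 (-0.46), Ctsd (-0.14), Map1lc3b (-0.49), Gabarap (-0.27) and Vmp1 (-0.38). Without TMM, Ssr4 (-0.038), Srp9 (-0.032), Itpr2 (-0.057), Ctsd (-0.031), Map1lc3b (-0.16), Gabarap (-0.50) and Vmp1 (-0.19) turned, and Itpr2 did so without mouse 2 (-0.036), while without mouse 1 it was 1.82 and no longer passed. The depth behind mouse 3 was 17 members and 349768 UMIs.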
